A study of Rattus norvegicus with 24 samples.

Results

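Levels of 6 miRNAs that are known from smooth muscle and fibroblasts were followed in the lung of rats that inhaled hexanal, a volatile aldehyde. The 6 were rno-miR-143-3p, rno-miR-145-5p, rno-miR-145-3p, rno-miR-199a-5p, rno-miR-199a-3p and rno-miR-214-3p, taken by their names on the array. They are 6 of the 719 rat miRNAs on the array, and all 6 were among the 283 miRNAs that were tested. Total RNA from whole lung of 24 Fischer-344 rats of both sexes, 7-8 weeks old when obtained, was labelled with Cy3 and put on Agilent rat miRNA arrays, 1 rat to an array. The control group breathed filtered clean air, and the other groups inhaled hexanal at 600, 1000 and 1500 ppm for 4 h/day on 5 days/week over 5 weeks by the labels, where the methods of the study name a week less. Each group held 6 rats, 3 males and 3 females. Titles of the samples state these doses in ppm but their protocol states them in mg/m3 with unchanged numbers, so ppm serves here only to name a dose. The rats carried no other treatment or allele in the labels. Levels are given as the log2 of the scaled array intensity, and differences as log2 fold changes. Since a probe's brightness depends on its sequence, the level of one miRNA was not set against that of another.

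miRNAs are short RNAs that bind messenger RNAs mainly through bases 2 to 8 of their 5′ end, the seed, and lower the output of the messages they bind. In mammals miR-143 and miR-145 are made from neighbouring hairpins of the same transcript in smooth muscle, pericytes and fibroblasts, where serum response factor and myocardin switch them on, and they are known for keeping smooth muscle of vessels and airways in its contractile state. miR-199a and miR-214 come from the transcript Dnm3os, on the opposite strand of an intron of dynamin 3, and are known from mesenchymal cells and from fibrotic tissue. Each hairpin can give a miRNA from its 5′ arm (5p) and from its 3′ arm (3p), of which one often decays quickly.

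The mature sequences of the 6 miRNAs are shown because the arms of a hairpin share a transcript but differ in seed. They are written 5′ to 3′ as in RefSeq, build GRCr8, with the seed in capitals.
rno-miR-143-3p: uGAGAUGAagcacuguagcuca
rno-miR-145-5p: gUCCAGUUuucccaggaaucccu
rno-miR-145-3p: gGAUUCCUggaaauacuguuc
rno-miR-199a-5p: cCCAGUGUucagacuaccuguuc
rno-miR-199a-3p: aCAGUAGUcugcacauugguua
rno-miR-214-3p: aCAGCAGGcacagacaggcag
The 6 miRNAs held 6 different seeds, and no other miRNA that is on the array and in this RefSeq table shared any of them (the table held 641 of the 719 names). Mir143, the gene of rno-miR-143-3p (chr18:57371373-57371394, minus strand), and Mir145, that of rno-miR-145-5p (chr18:57370033-57370055) and rno-miR-145-3p (chr18:57369997-57370017), lie 1278 bases apart. Mir199a2, the gene of rno-miR-199a-5p (chr13:77116255-77116277, plus strand) and rno-miR-199a-3p (chr13:77116294-77116315), and Mir214, that of rno-miR-214-3p (chr13:77121713-77121733), lie 5310 bases apart. These neighbours are called the Mir143 cluster and the Mir199a2 cluster.

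The arrays lay on 3 slides of 8, and neither sex nor dose was balanced over them. On slide 1 were males alone, namely all those of control and 600 ppm and 2 of 1000 ppm. On slide 3 were females alone, namely all those of 1000 and 1500 ppm and 2 of 600 ppm. Slide 2 was mixed, with the control females, the 1500 ppm males, the remaining female of 600 ppm and the remaining male of 1000 ppm. Between 221 and 306 miRNAs were above background on an array, and no spot was saturated. The dose comparisons over all rats are therefore given without and with slide in the fit.

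rno-miR-143-3p, rno-miR-145-5p, rno-miR-199a-5p, rno-miR-199a-3p and rno-miR-214-3p were above background on all 24 arrays, and rno-miR-145-3p on 7. No dose of hexanal gave a difference from control in any of the 6 that passed the test. By limma with Benjamini-Hochberg adjustment over 283 miRNAs, 0 of 6 passed at 600, 1000 and 1500 ppm, and the share of all tested miRNAs that passed was 0% at each dose. At an unadjusted p below 0.05, 0 of the 6 passed at 600 ppm (1.77% of all), 0 at 1000 ppm (6.01%) and 1, rno-miR-145-3p, at 1500 ppm (9.19%). The F test for any dose gave 0 of 6 (0% of all). The slope with dose gave 0 of 6 after adjustment (0% of all) and 2 of 6 at an unadjusted p below 0.05 (10.2% of all), rno-miR-145-3p at -0.10 ± 0.05 and rno-miR-214-3p at 0.24 ± 0.12 log2 units per 1000 ppm (limma adjusted p of 0.451 and 0.474). With slide as a block these slopes were -0.02 ± 0.02 and 0.02 ± 0.07. The median log2 difference of the 6 was 0.06, 0.08 and -0.04 at the 3 doses, against 0.02, -0.01 and 0.00 over all miRNAs tested. In whole lung, fewer cells of a type and less RNA per cell cannot be told apart.

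The lowest, median and highest log2 levels of rno-miR-143-3p were 12.53, 12.70 and 12.81 in control, 12.71, 12.74 and 12.92 at 600 ppm, 12.70, 12.77 and 12.90 at 1000 ppm and 12.57, 12.66 and 12.76 at 1500 ppm (n = 6 each). The groups overlapped, and this miRNA had the narrowest spread of the 5 that were measured on all arrays, with an SD of 0.09 over the 24 rats. rno-miR-143-3p, the dominant arm of its hairpin, differed from control by 0.08 ± 0.06 at 600 ppm, 0.08 ± 0.06 at 1000 ppm and -0.03 ± 0.06 at 1500 ppm (log2 fold change, SE), with limma adjusted p of 0.996, 0.812 and 0.799. Its 95% confidence intervals were -0.04 to 0.19, -0.04 to 0.19 and -0.15 to 0.08, so that a 1.5-fold change of the mean of its probes lay outside all of them. Under the slide block the 3 differences were 0.08 ± 0.05, 0.09 ± 0.05 and 0.00 ± 0.06. The mean hid an opposite shift of its probes between slides, as the values of the single probes show.

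The lowest, median and highest log2 levels of rno-miR-145-5p were 9.40, 9.84 and 10.17 in control, 9.53, 9.96 and 10.43 at 600 ppm, 9.60, 9.77 and 10.23 at 1000 ppm and 9.54, 9.61 and 9.65 at 1500 ppm (n = 6 each). The control, 600 ppm and 1000 ppm groups each split into a high and a low set of rats, while the 6 rats at 1500 ppm lay within 0.12 of each other. All the high rats were those of slide 1. rno-miR-145-5p, which represses KLF4 and so favours the contractile state of smooth muscle, differed from control by 0.16 ± 0.16 at 600 ppm, 0.06 ± 0.16 at 1000 ppm and -0.20 ± 0.16 at 1500 ppm (log2, SE), with limma adjusted p of 0.996, 0.991 and 0.594. With slide as a block its differences were 0.15 ± 0.05, 0.15 ± 0.06 and 0.09 ± 0.06, all above 0. The unadjusted p of the first pair were 0.0109 and 0.0157, and the limma adjusted p were 0.307, 0.496 and 0.642. In that fit 1 of the 6 was below an unadjusted p of 0.05 at 600 ppm (8.13% of all miRNAs) and 1 at 1000 ppm (8.48%), and 0 of 6 passed after adjustment at the 3 doses (0% of all).

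rno-miR-145-3p, the other arm of the same hairpin, was above background on 3 arrays of control, 2 at 600 ppm, 2 at 1000 ppm and 0 at 1500 ppm. All 7 were males on slide 1. The lowest, median and highest log2 levels of rno-miR-145-3p were 3.50, 3.63 and 3.87 in control, 3.50, 3.57 and 3.84 at 600 ppm, 3.50, 3.50 and 3.74 at 1000 ppm and 3.50, 3.50 and 3.50 at 1500 ppm (n = 6 each). The lowest value is the floor set for dim probes, so that at 1500 ppm this miRNA has only a bound. The measured means of 3.66 in control and 3.50 at 1500 ppm gave no bound above 1-fold, and the fit gave -0.16 ± 0.07 (log2, SE, limma unadjusted p = 0.0495, adjusted 0.498). Its differences at 600 and 1000 ppm were -0.04 ± 0.07 and -0.08 ± 0.07, with limma adjusted p of 0.996 and 0.952. Under the slide block the 3 values were -0.05 ± 0.03, -0.05 ± 0.03 and -0.03 ± 0.03 (limma adjusted p = 0.831 at 1500 ppm).

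The lowest, median and highest log2 levels of rno-miR-199a-5p were 7.80, 8.09 and 8.60 in control, 7.80, 8.33 and 8.54 at 600 ppm, 8.15, 8.33 and 8.54 at 1000 ppm and 8.00, 8.04 and 8.39 at 1500 ppm (n = 6 each). The ranges of all 4 groups overlapped. rno-miR-199a-5p, which lowers caveolin-1 and is known from lung fibroblasts in fibrosis, differed from control by 0.13 ± 0.13 at 600 ppm, 0.19 ± 0.13 at 1000 ppm and -0.04 ± 0.13 at 1500 ppm (log2, SE), with limma adjusted p of 0.996, 0.812 and 0.932. Slide in the fit moved these to 0.04 ± 0.09, 0.12 ± 0.10 and 0.03 ± 0.10, with the sign turned at 1500 ppm. The lowest, median and highest log2 levels of rno-miR-199a-3p were 10.47, 10.56 and 10.72 in control, 10.41, 10.66 and 10.80 at 600 ppm, 10.44, 10.64 and 10.97 at 1000 ppm and 10.48, 10.57 and 10.88 at 1500 ppm (n = 6 each). These groups overlapped too, and rat 37, a female at 1500 ppm, stood above the others of its group. rno-miR-199a-3p, the arm known for lowering mTOR and MET, differed from control by 0.04 ± 0.09 at 600 ppm, 0.08 ± 0.09 at 1000 ppm and 0.02 ± 0.09 at 1500 ppm (log2, SE), with limma adjusted p of 0.996, 0.99 and 0.978. With slide in the fit all 3 values had the other sign, at -0.02 ± 0.08, -0.01 ± 0.08 and -0.06 ± 0.08.

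The lowest, median and highest log2 levels of rno-miR-214-3p were 6.94, 7.45 and 7.84 in control, 6.92, 7.34 and 7.91 at 600 ppm, 7.05, 7.76 and 8.05 at 1000 ppm and 7.49, 7.81 and 7.93 at 1500 ppm (n = 6 each). The group at 1500 ppm had no rat below 7.49, whereas the other groups each held males of slide 1, which lay from 6.92 to 7.39. rno-miR-214-3p, known for lowering EZH2, differed from control by 0.00 ± 0.18 at 600 ppm, 0.22 ± 0.18 at 1000 ppm and 0.33 ± 0.18 at 1500 ppm (log2, SE), with limma adjusted p of 0.996, 0.913 and 0.5. Slide as a block gave -0.01 ± 0.10 at 600 ppm, 0.10 ± 0.11 at 1000 ppm and 0.01 ± 0.11 at 1500 ppm (95% interval -0.23 to 0.24, limma adjusted p = 0.982 for the last). No member separated any dose group from control without overlap, as was true of 0% of all miRNAs at 600 ppm, 0% at 1000 ppm and 0.353% at 1500 ppm.

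**Figure D1:**
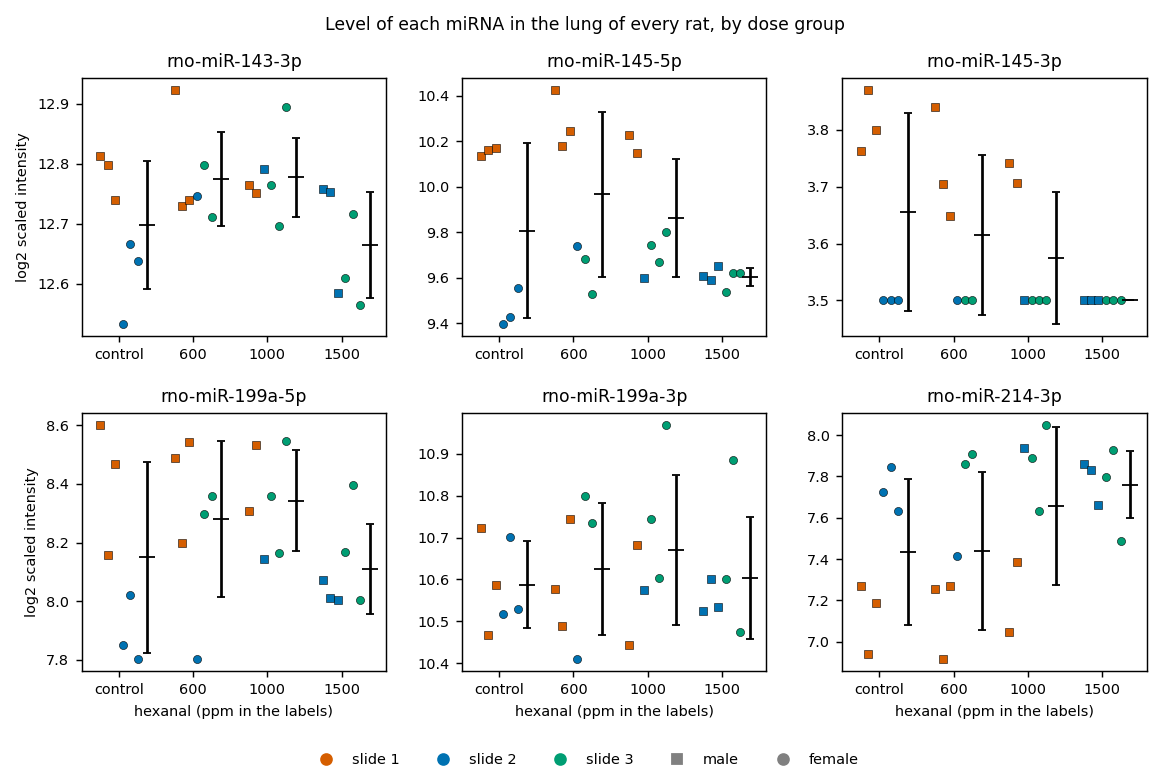
Log2 scaled intensity of the 6 miRNAs in each of the 24 rats (vertical axis, its range set per panel) by hexanal dose group (horizontal axis), with colour for the slide, squares for males and circles for females, and the mean with its SD (n = 6) to the right of each group. The slide 1 rats of rno-miR-145-5p all lie at 10.13 or higher and every other rat at 9.80 or lower, rno-miR-214-3p is lowest on slide 1, and rno-miR-145-3p leaves the floor of 3.50 on slide 1 alone.

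**Figure D2:**
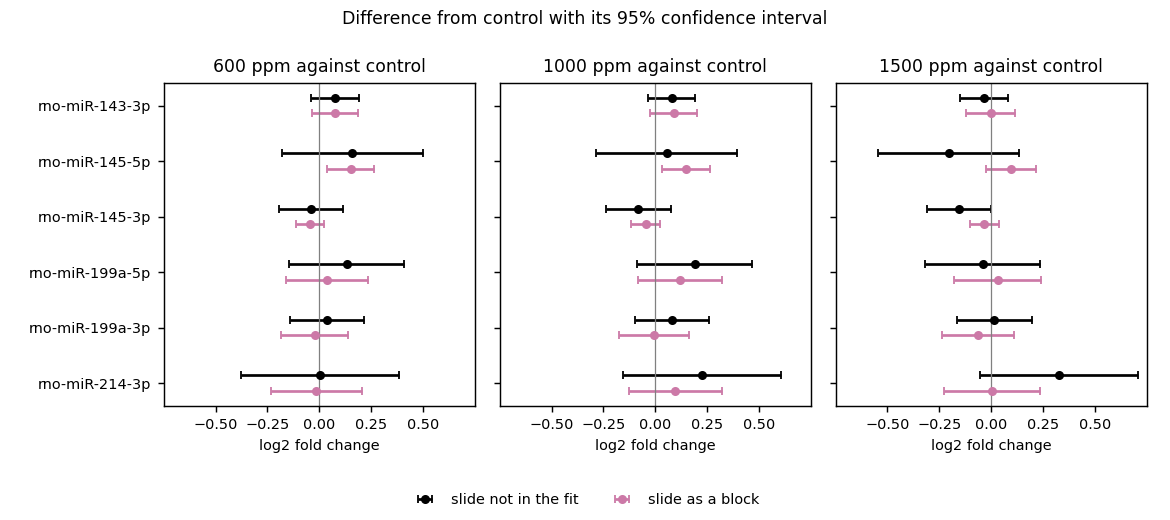
Log2 fold change of each miRNA against control (horizontal axis) at 600, 1000 and 1500 ppm, with 95% confidence intervals from limma, in black for the fit of dose groups alone and in pink with slide as a block. At 1500 ppm the difference of rno-miR-145-5p moves from -0.20 to 0.09 and that of rno-miR-214-3p from 0.33 to 0.01, and the interval of rno-miR-145-5p lies above 0 at 600 and 1000 ppm with slide in the fit.

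Slide accounted for 90.1% of the variance of rno-miR-145-5p over the 24 rats, 90.2% of rno-miR-145-3p, 76.8% of rno-miR-214-3p, 62.6% of rno-miR-199a-5p, 29.7% of rno-miR-199a-3p and 19.5% of rno-miR-143-3p. The median over all miRNAs tested was 37.6%, so that 4 of the 6 lay above it. The level of rno-miR-145-5p was 10.21 ± 0.09 on slide 1, against 9.57 ± 0.11 on slide 2 and 9.65 ± 0.09 on slide 3 (log2, SD, n = 8 each). That of rno-miR-214-3p was 7.16 ± 0.17 on slide 1, against 7.74 ± 0.17 on slide 2 and 7.82 ± 0.18 on slide 3, the opposite order between slide 1 and the others. That of rno-miR-199a-5p was 8.41 ± 0.17 on slide 1, against 7.96 ± 0.13 on slide 2 and 8.29 ± 0.17 on slide 3, with slide 2 lowest. The 8 arrays of slide 1 did not overlap those of slide 2 for 4 of the 6 (28.3% of all miRNAs) nor those of slide 3 for 3 of the 6 (21.2%). Slides 2 and 3 overlapped for all 6 (0.353% of all miRNAs did not). Slide 1 held males alone, so its offset and the sex of the rats cannot be told apart there.

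Sex was compared over all 4 dose groups. The level of rno-miR-145-5p was higher in males by 0.40 ± 0.08 (log2, SE, limma adjusted p = 0.00119), and rno-miR-214-3p was lower in males, with a difference of -0.38 ± 0.10 (adjusted p = 0.0063). For rno-miR-145-3p the fit gave 0.17 ± 0.04 (adjusted p = 0.00186), but all 12 females were at the floor, no bound above 1-fold could be given, and normexp background correction turned its sign. Counting it, 3 of 6 passed the test, as did 43.8% of all miRNAs. The values for rno-miR-143-3p, rno-miR-199a-5p and rno-miR-199a-3p were 0.07 ± 0.04, 0.15 ± 0.09 and -0.09 ± 0.06, with limma adjusted p of 0.135, 0.188 and 0.237.

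After slide was entered as a block, 0 of the 6 passed (3.53% of all miRNAs). rno-miR-145-5p then differed between males and females by 0.02 ± 0.09 (limma adjusted p = 0.891) and rno-miR-214-3p by 0.29 ± 0.17 (adjusted p = 0.379), with the sign turned. Slide 2, which held 4 males and 4 females, allowed the comparison within a slide, although 3 of these males had breathed 1500 ppm and 3 of the females clean air. There 0 of 6 passed (7.07% of all miRNAs). The differences, male minus female, were 0.08 ± 0.08 for rno-miR-145-5p, 0.17 ± 0.10 for rno-miR-214-3p and 0.19 ± 0.06 for rno-miR-199a-5p (limma adjusted p of 0.589, 0.399 and 0.132).

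Within males, rno-miR-145-5p was 10.16 ± 0.02 in control, 10.29 ± 0.13 at 600 ppm, 9.99 ± 0.34 at 1000 ppm and 9.62 ± 0.03 at 1500 ppm (log2, SD, n = 3). The 3 control males were at 10.13, 10.16 and 10.17 and the 3 males at 1500 ppm at 9.61, 9.59 and 9.65, with no overlap. The 1500 ppm males were lower than the control males by limma, with a difference of -0.54 ± 0.11 (SE, adjusted p = 0.00122). rno-miR-145-3p was lower too (-0.31 ± 0.06, adjusted p = 0.000698), at least 1.18-fold higher in control males than at 1500 ppm when the dim arrays are set at their detection bound. rno-miR-214-3p was higher at 1500 ppm by 0.65 ± 0.19 (adjusted p = 0.00886). These 3 of 6 passed in 1500 ppm males, as did 36% of all miRNAs, and the groups of 3 did not overlap for 4 of 6 (56.5% of all). All 3 control males lay on slide 1 and all 3 males at 1500 ppm on slide 2. Under the slide block, for which the males at 1000 ppm, 2 on slide 1 and 1 on slide 2, are the link, 0 of 6 passed (0% of all), and the differences were 0.05 ± 0.12 for rno-miR-145-5p and -0.07 ± 0.25 for rno-miR-214-3p.

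In males 0 of 6 passed at 600 ppm (0% of all miRNAs) and 0 of 6 at 1000 ppm (1.06% of all). In females 0 of 6 passed at 600, 1000 or 1500 ppm (0% of all at each dose). The female levels of rno-miR-145-5p were 9.46 ± 0.08, 9.65 ± 0.11, 9.74 ± 0.07 and 9.59 ± 0.05 from control to 1500 ppm (log2, SD, n = 3), with the difference at 1000 ppm at 0.28 ± 0.11 (limma adjusted p = 0.198). Without rat 13, a male at 1000 ppm on slide 2 that enters this fit through the shared spread, that difference of rno-miR-145-5p in females passed. The females at 1000 ppm lay on slide 3 and the control females on slide 2. For rno-miR-199a-5p the difference between these females was 0.46 ± 0.15 (adjusted p = 0.105). Under the slide block the 600 ppm females, 2 on slide 3 and only rat 26 on slide 2, link these slides. In that fit the difference of rno-miR-199a-5p was -0.06 ± 0.23 and that of rno-miR-145-5p was 0.41 ± 0.12 (limma adjusted p of 0.979 and 0.702). Both values depend on that 1 array of slide 2.

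The test of a dose by sex interaction passed for 2 of 6, rno-miR-145-5p (F = 7.9, limma adjusted p = 0.0143) and rno-miR-145-3p (F = 5.13, adjusted p = 0.041), and for 25.1% of all miRNAs. The effect of 1500 ppm differed between males and females for 3 of 6 (35.3% of all), by -0.67 ± 0.16 for rno-miR-145-5p, -0.31 ± 0.08 for rno-miR-145-3p and -0.68 ± 0.22 for rno-miR-199a-5p (log2, males minus females, SE, limma adjusted p of 0.00472, 0.00765 and 0.0207). Since all 12 females of rno-miR-145-3p were at the floor, no effect could be seen in them, and its values in both tests restate those of the males. The value of rno-miR-199a-5p is that of the mean of its probes, which shifted unequally between slides. Once slide was a block, 0 of 6 passed the interaction test (0% of all). The interaction of rno-miR-145-5p passed whichever single rat was left out, and that of rno-miR-145-3p was lost without 17 of the 24 rats taken one at a time.

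Comparisons of dose groups of the same sex within a slide were free of the slide offset. On slide 1, 600 ppm males differed from control males by 0.13 ± 0.07 for rno-miR-145-5p and by 0.02 ± 0.15 for rno-miR-214-3p (log2, SE), and 0 of 6 passed by limma (0.353% of all miRNAs). The 2 males at 1000 ppm there differed from control males by 0.03 ± 0.08 and 0.08 ± 0.16, again with 0 of 6 (0% of all). On slide 3, females at 1500 ppm differed from those at 1000 ppm by -0.15 ± 0.07 for rno-miR-143-3p, -0.15 ± 0.06 for rno-miR-145-5p and -0.17 ± 0.13 for rno-miR-199a-5p. Of these, 0 of 6 passed (0% of all), as did 0 of 6 in the other 3 comparisons within slides (0% of all). Control and 1500 ppm shared no slide within a sex.

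The 3 miRNAs of the Mir199a2 cluster varied together from rat to rat. Over the 24 rats the Pearson correlation of rno-miR-199a-5p with rno-miR-214-3p was -0.17 (Spearman -0.08), but after slide means were taken off it was 0.92 (Spearman 0.95). Within slides 1, 2 and 3, with 8 rats each, it was 0.95, 0.84 and 0.96. Less slide means, rno-miR-199a-5p with rno-miR-199a-3p gave 0.85 and rno-miR-199a-3p with rno-miR-214-3p 0.83. The median of these 3 pairs was 0.85, and it ran from 0.69 to 0.94 over the alternatives, except for normexp with parameters fitted per array, where it was -0.06 and the fit had failed on 2 arrays. In the plot of neighbouring miRNAs the slides are offset from each other for this pair, and the offset is gone once the slide means are taken off.

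In the Mir143 cluster, rno-miR-143-3p and rno-miR-145-5p had a correlation of 0.59 as scaled and 0.64 less slide means, with 0.72, 0.52 and 0.74 within the slides. The arms rno-miR-145-5p and rno-miR-145-3p gave 0.91 as scaled and 0.12 less slide means, where rno-miR-145-3p was at the floor on slides 2 and 3. rno-miR-145-5p and rno-miR-214-3p, of different clusters, were at -0.81 as scaled and -0.02 less slide means. Across clusters rno-miR-143-3p gave 0.56 with rno-miR-199a-5p less slide means, and 0.19, 0.48 and 0.88 within slides 1, 2 and 3. It also gave 0.44 with rno-miR-199a-3p and 0.46 with rno-miR-214-3p less slide means. The median of the pairs less slide means was 0.26 in the Mir143 cluster and 0.85 in the Mir199a2 cluster. The 0.26 is the value of rno-miR-143-3p with rno-miR-145-3p, which the floor on slides 2 and 3 limits. Pooled over the 6 pairs within a cluster the median was 0.74, over the 9 pairs between clusters 0.02, and over all 39903 pairs of tested miRNAs 0.09. The 9 pairs include rno-miR-145-3p with rno-miR-199a-5p, rno-miR-199a-3p and rno-miR-214-3p, at -0.19, -0.25 and -0.16. rno-miR-145-5p gave 0.20 with rno-miR-199a-5p and 0.02 with rno-miR-199a-3p. Both pooled values of the 6 miRNAs thus depend in part on one that was at the floor on slides 2 and 3. All points share the scaling of their array, and these values are descriptions.

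**Figure D3:**
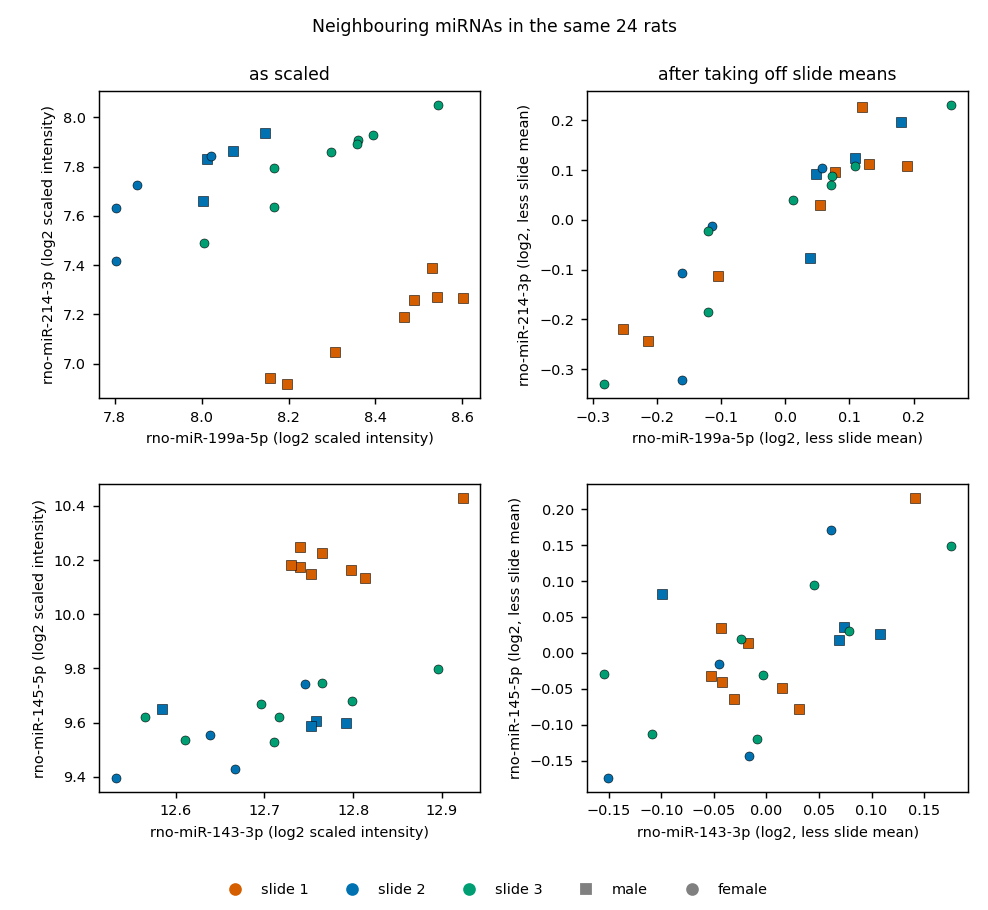
Levels of rno-miR-214-3p against rno-miR-199a-5p (top) and of rno-miR-145-5p against rno-miR-143-3p (bottom) in the 24 rats, as log2 scaled intensity on the left and after the mean of each slide was taken off on the right, with colour for the slide, squares for males and circles for females. The correlation of the top pair goes from -0.17 to 0.92 and that of the bottom pair from 0.59 to 0.64.

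Differences taken within an array remove its scaling. Relative to its mean over all rats, rno-miR-143-3p minus rno-miR-145-5p was -0.03 ± 0.29 in control, -0.11 ± 0.33 at 600 ppm, 0.00 ± 0.27 at 1000 ppm and 0.14 ± 0.10 at 1500 ppm (log2, SD, n = 6), and by slide -0.35 ± 0.07, 0.20 ± 0.10 and 0.15 ± 0.07 (n = 8). For rno-miR-214-3p minus rno-miR-199a-3p, of the same cluster, the groups were at -0.11 ± 0.34, -0.14 ± 0.31, 0.04 ± 0.28 and 0.21 ± 0.12 and the slides at -0.38 ± 0.10, 0.24 ± 0.12 and 0.14 ± 0.07. The arms of the miR-199a hairpin, 5p minus 3p, were at 0.22 ± 0.08, -0.18 ± 0.11 and -0.04 ± 0.05 by slide. In each of these 3 differences slide 1 lay on the other side of the mean from slides 2 and 3. The SD within a slide was smaller than that of the control group, which lay on slides 1 and 2. These differences use the mean of each miRNA's probes. The probes of rno-miR-143-3p and of both miR-199a arms shifted unequally between slides, as given below. How much of the differences is due to single probes was not tested.

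Each of the 6 miRNAs had a pair of probes on the array. The pair for rno-miR-143-3p ran in opposite directions between slides. Its first probe read 13.18 ± 0.05 on slide 1, 13.60 ± 0.10 on slide 2 and 13.55 ± 0.11 on slide 3 (log2, SD, n = 8), lowest on slide 1. Its second probe read 12.38 ± 0.08, 11.76 ± 0.09 and 11.89 ± 0.10, highest on slide 1. Over the 24 rats the probes had a Pearson correlation of -0.75, and of 0.94 once slide means were taken off. Among 239 miRNAs with at least 2 probes in use, the median correlation of the first pair was 0.79, and 4 were as low as rno-miR-143-3p or lower, itself included.

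The mean of the pair cancelled most of this shift. Taken alone, the first probe of rno-miR-143-3p differed from control at 1500 ppm by 0.17 and the second by -0.24, and males minus females was -0.22 and 0.36. The low slide share of rno-miR-143-3p given above therefore holds for the mean of its probes and not for the probes taken singly. The pairs of rno-miR-199a-5p and rno-miR-199a-3p correlated at 0.66 and 0.43, and at 0.96 and 0.98 less slide means. On slides 1, 2 and 3 the first probe of rno-miR-199a-5p read 9.10, 8.96 and 9.19 and the second 7.72, 6.96 and 7.38. For rno-miR-199a-3p the first probe read 10.32, 10.08 and 10.28 and the second 10.86, 11.02 and 11.17. Males minus females was 0.01 for the first probe of rno-miR-199a-5p and 0.29 for the second, and 0.04 and -0.21 for those of rno-miR-199a-3p. The pairs of rno-miR-145-5p and rno-miR-214-3p correlated at 0.999 and 0.982, so that their slide offset was read by both probes. For rno-miR-145-3p, 1 probe of the pair was kept and the other was above background on 1 array.

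**Figure D4:**
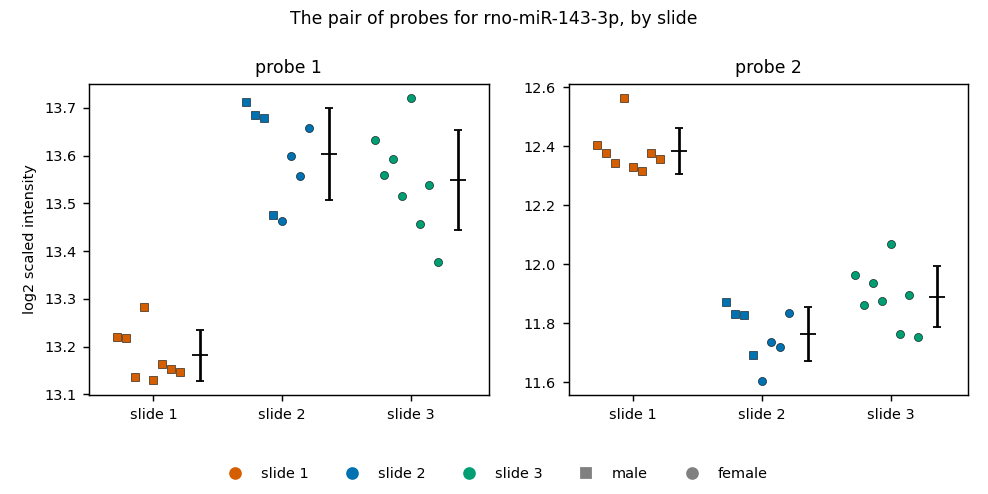
Log2 scaled intensity of the first and second probe of rno-miR-143-3p (vertical axes, ranges set per panel) on each of the 24 arrays by slide, with squares for males, circles for females and the mean with its SD (n = 8) at the right of each slide. The first probe is lowest on slide 1, at 13.18, and the second is highest there, at 12.38.

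The tested miRNAs whose pattern over the rats was most like that of the 6 were ranked by their Pearson correlation with the mean of the 6, less slide means (n = 24). They were rno-miR-100-5p (0.85), rno-miR-133a-3p (0.75) and rno-miR-99a-5p (0.73). Within slides 1, 2 and 3 rno-miR-100-5p gave 0.78, 0.64 and 0.95. rno-miR-133a-3p, above background on 21 arrays, gave 0.94, 0.60 and 0.74, and rno-miR-99a-5p gave 0.56, 0.26 and 0.94. For the Mir143 cluster alone the most alike were rno-miR-143-5p (0.79), the other arm of the miR-143 hairpin, rno-miR-100-5p (0.56) and rno-miR-352 (0.53, but 0.28 on slide 2). For the Mir199a2 cluster alone they were rno-miR-100-5p (0.76), rno-miR-133a-3p (0.72) and rno-miR-34c-5p (0.71).

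Mature sequences of the nearest of these are shown to set them beside the 6.
rno-miR-100-5p: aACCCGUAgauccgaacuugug
rno-miR-133a-3p: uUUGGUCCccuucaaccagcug
rno-miR-143-5p: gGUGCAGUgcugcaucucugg
rno-miR-34c-5p: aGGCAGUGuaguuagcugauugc
None of these seeds is that of any of the 6. rno-miR-143-5p, from the same hairpin as rno-miR-143-3p, differed from control by 0.10 ± 0.06, 0.02 ± 0.06 and -0.05 ± 0.06 at the 3 doses (log2, SE, limma adjusted p of 0.996, 0.991 and 0.748). In rno-miR-133a-3p, a miRNA of heart and skeletal muscle, the differences were 0.34 ± 0.45, 0.92 ± 0.45 and 0.23 ± 0.45 (limma adjusted p of 0.996, 0.636 and 0.830). Both sets of differences are from the fit without slide.

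A list of 15 other miRNAs of mesenchymal cells had 14 on the array and 9 tested, and 8 were above background on all arrays. At 600, 1000 and 1500 ppm 0 of 9 passed the limma test, with median log2 differences of 0.07, 0.07 and 0.01 in the fit without slide. The 9 ran from -0.10 to 0.15, -0.01 to 0.14 and -0.23 to 0.49. By sex 6 of 9 passed, 3 higher and 3 lower in males, where 43.8% of all miRNAs passed (3.53% with slide as a block). Their summed scaled intensity ran from 8084 to 9282 in control, 8133 to 9851 at 600 ppm, 7897 to 10684 at 1000 ppm and 9073 to 10031 at 1500 ppm.

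Markers of other cells in the lung were measured beside these, and their differences are from the fit without slide. rno-miR-126a-3p and rno-miR-126a-5p of endothelium and all 7 of an epithelial list were above background on every array. The endothelial pair differed from control by 0.02 to 0.09 at 600 ppm, -0.10 to -0.04 at 1000 ppm and -0.43 to -0.001 at 1500 ppm (log2). The 7 of epithelium differed by -0.06 to 0.15, -0.11 to 0.35 and -0.06 to 0.32, with none of either list past the limma test. Of the striated muscle list, 4 of 7 were tested and rno-miR-206-3p, rno-miR-208a-3p and rno-miR-208b-3p were above background on 0 arrays. The 4 differed from control by 0.10 to 0.72, 0.37 to 1.81 and -0.15 to 0.65 at the 3 doses (log2, 0 of 4 passed in limma). Their medians were 0.36, 0.99 and 0.32, and the 1.81 was that of rno-miR-1-3p, with an SE of 0.88. Their summed scaled intensity reached at most 410 in control, 602 at 600 ppm, 1373 at 1000 ppm and 1205 at 1500 ppm. For ciliated cells, 5 miRNAs differed from control by 0.10 to 0.45 at 600 ppm, 0.45 to 0.81 at 1000 ppm and 0.10 to 0.29 at 1500 ppm (0 of 5 passed). The 4 leukocyte miRNAs differed by -0.22 to -0.11, -0.08 to 0.01 and -0.22 to 0.08, and the 3 of red cells by 0.00 to 0.33, 0.09 to 0.32 and -0.27 to 0.02, with none past the test. The part of these markers in the correlations above was not tested.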

How the data were processed

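Per the labels, total RNA of each lung was extracted with Trizol and labelled with Cy3 by the authors, 1 array per rat. The deposited scanner files hold array intensity values per spot (Agilent Feature Extraction 11.5.1.1), background-subtracted and not normalized between arrays. The deposited series table holds intensity too and was used as an alternative. The study's paper does not describe these arrays.

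Non-control spots (14380) were scaled to each array's 75th percentile over the 394 probes above background on all 24 arrays, floored at 11.3, put on the log2 scale and averaged by probe. Probes above background on at least 6 arrays were kept (555), and their mean was taken per miRNA (283 of 719). Tests used limma 3.58.1 in R 4.3.3 with Benjamini-Hochberg adjustment over 283 miRNAs and a threshold of 0.05, and intervals cover 95%. The fits were by dose, by dose and sex together, and with slide as a block. The number of arrays limits the precision. The labels do not say whether rats shared cages, and the study's paper gives only a limit on rats per cage. The p-values therefore measure only the spread between these rats. In the fits without slide that spread includes the offsets between slides. Checks on simulated data used the same code.

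All 6 miRNAs are named, with the 3 tested miRNAs most correlated with the 6 and with each cluster. The 6 members and the marker lists were chosen with earlier results of these data known. Alternatives were another percentile set, quantile and total-signal scaling, filters, floors, probe choices, normexp, the series table, slide blocks, sex as a covariate, the methods' t-test and leaving out each rat.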

Additional observations from a re-analysis of the deposited data

Results flagged for a closer look

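At 1500 ppm, rno-miR-199a-3p in female rat 37 was at 10.88 (log2), against 10.55 ± 0.05 (SD) in the other 5 rats. Its gap to the nearest rat was 0.690 of the group's range, above Dixon's 95% critical value for 6 samples. Of 23 groups examined 1 was past it, and chance alone flags about 1 in 20 groups.

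The effect of 1500 ppm differed between males and females by -0.31 for rno-miR-145-3p, -0.67 for rno-miR-145-5p and -0.68 for rno-miR-199a-5p (log2, males minus females, by limma). The interaction of dose and sex gave F = 5.13 for rno-miR-145-3p and F = 7.90 for rno-miR-145-5p. Control males lay on slide 1, males at 1500 ppm and control females on slide 2 and females at 1500 ppm on slide 3, and none of these 3 miRNAs passed with slide as a block. All 12 females of rno-miR-145-3p were at the floor, so that its values restate those of the males. The value of rno-miR-199a-5p is that of the mean of its probes, which shifted unequally between slides.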

How the results depend on the processing

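As first reported, 0 of the 6 were called at each dose and by the trend, 3 by sex (43.8% of all miRNAs), 3 in 1500 ppm males (36%) and 2 by the interaction (25.1%). The calls over all miRNAs were 124 by sex and 71 by the interaction, and the median r within a cluster, less slide means, was 0.26 (Mir143 cluster) and 0.85 (Mir199a2 cluster). The 0.26 is limited by rno-miR-145-3p, which was at the floor on slides 2 and 3. Under no alternative did a member pass the adjusted test at a dose over all rats. Every value whose sign turned at a dose had failed the test before and failed it after. No paired analysis was possible because the rat numbers are not shared between groups.

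With the percentile over all probes, the sign turned for miR-214-3p (-0.00676) at 600 ppm, miR-143-3p (0.0222) and miR-199a-5p (0.0143) at 1500 ppm. Members called numbered 0 of 6 by the interaction (32.2% of all miRNAs). After quantile normalization, the sign turned for miR-214-3p (-0.0337) at 600 ppm, miR-145-5p (-0.00187) at 1000 ppm, miR-199a-3p (-0.0314) at 1500 ppm. Members called numbered 5 of 6 for males minus females (38.9% of all miRNAs) and 1 of 6 by the interaction (22.6% of all miRNAs) and the median r within a cluster was 0.69 (Mir199a2 cluster). Without a filter on dim probes, the test called 77 miRNAs for males minus females. A strict filter on dim probes left rno-miR-145-3p without a value, and with it members called numbered 1 of 5 by the interaction (36.5% of all miRNAs). With a floor of 1, the sign turned for miR-145-3p (0.21) at 600 ppm, miR-145-3p (0.19) at 1000 ppm. Members called numbered 1 of 6 within slide 3 (1500 against 600 ppm) (1.06% of all miRNAs) and 1 of 6 within slide 3 (1500 against 1000 ppm) (0.707% of all miRNAs), the test called 5 miRNAs by the trend and the median r within a cluster was 0.62 (Mir143 cluster). Of the 6 only rno-miR-145-3p lies near the floor, and it was above background on 0 arrays of slide 3. With the brightest probe of each miRNA, the sign turned for miR-214-3p (-0.0288) at 600 ppm, miR-143-3p (0.17) and miR-199a-5p (0.0533) at 1500 ppm, miR-143-3p (-0.22) for males minus females. Members called numbered 5 of 6 for males minus females (51.9% of all miRNAs). With the total gene signal of the scanner files, the sign turned for miR-143-3p (-0.00301), miR-199a-3p (-0.0278) and miR-214-3p (-0.0618) at 600 ppm, miR-145-3p (0.0249) at 1000 ppm, miR-143-3p (0.0120) and miR-199a-3p (-0.00223) at 1500 ppm, miR-143-3p (-0.0134) for males minus females. In the deposited series table, the sign turned for miR-143-3p (-0.00245), miR-199a-3p (-0.0272) and miR-214-3p (-0.0612) at 600 ppm, miR-199a-3p (-0.23) at 1500 ppm, miR-199a-3p (0.0914) for males minus females. Members called numbered 5 of 6 in 1500 ppm males (69.6% of all miRNAs) and 4 of 6 by the interaction (25.4% of all miRNAs), the test called 1 miRNA at 1500 ppm, 1 miRNA by the trend and 52 miRNAs for males minus females and the median r within a cluster was 0.64 (Mir143 cluster) and 0.94 (Mir199a2 cluster). With normexp and an offset of 50, the sign turned for miR-143-3p (-0.00404), miR-145-3p (0.42) and miR-199a-3p (-0.00220) at 600 ppm, miR-145-3p (-0.24) for males minus females. Members called numbered 1 of 6 for males minus females (1.77% of all miRNAs), 1 of 6 in 1500 ppm males (2.47% of all miRNAs) and 0 of 6 by the interaction (0% of all miRNAs), the test called 5 miRNAs for males minus females and 0 miRNAs by the interaction and the median r within a cluster was -0.0595 (Mir199a2 cluster). With normexp under parameters shared by all arrays, added after seeing the data, the sign turned for miR-145-3p (0.0555) at 600 ppm, miR-145-3p (0.0503) at 1500 ppm, miR-145-3p (-0.0558) for males minus females. Members called numbered 1 of 6 by the interaction (15.2% of all miRNAs), the test called 59 miRNAs for males minus females and 43 miRNAs by the interaction and the median r within a cluster was -0.0375 (Mir143 cluster). Fitting slide as a block, the sign turned for miR-199a-3p (-0.0230) and miR-214-3p (-0.0147) at 600 ppm, miR-199a-3p (-0.00580) at 1000 ppm, miR-145-5p (0.0945), miR-199a-5p (0.0327) and miR-199a-3p (-0.0640) at 1500 ppm, miR-199a-3p (0.13) and miR-214-3p (0.29) for males minus females. Members called numbered 0 of 6 for males minus females (3.53% of all miRNAs), 0 of 6 in 1500 ppm males (0% of all miRNAs) and 0 of 6 by the interaction (0% of all miRNAs) and the test called 10 miRNAs for males minus females and 0 miRNAs by the interaction. Fitting slide as a random block, the sign turned for miR-199a-3p (-0.0144) and miR-214-3p (-0.0108) at 600 ppm, miR-145-5p (0.0499), miR-199a-5p (0.0216) and miR-199a-3p (-0.0521) at 1500 ppm, miR-199a-3p (0.0210) for males minus females. Members called numbered 0 of 6 for males minus females (0% of all miRNAs), 0 of 6 in 1500 ppm males (0.707% of all miRNAs) and 0 of 6 by the interaction (0% of all miRNAs) and the test called 0 miRNAs for males minus females and 0 miRNAs by the interaction. With sex as a covariate, the test called 3 miRNAs by the trend. Without adjustment, the methods' t-test with a 1.5-fold limit called 3 miRNAs at 1000 ppm and 2 at 1500 ppm, none of them a member, and 0 miRNAs at each dose after Benjamini-Hochberg adjustment. With the first probe of each miRNA alone, added after seeing the data, the sign turned for miR-214-3p (-0.0288) at 600 ppm, miR-143-3p (0.17), miR-199a-5p (0.0533) and miR-199a-3p (-0.0549) at 1500 ppm, miR-143-3p (-0.22) and miR-199a-3p (0.0357) for males minus females. With the second probe alone, also added later, members called numbered 5 of 6 for males minus females (49.8% of all miRNAs), 5 of 6 in 1500 ppm males (47.3% of all miRNAs) and 4 of 6 by the interaction (34.3% of all miRNAs). The median r within a cluster was 0.78 (Mir199a2 cluster). On slides 2 and 3 alone, also added later, the sign turned for miR-214-3p (-0.00653) at 600 ppm, miR-143-3p (0.0517), miR-145-5p (0.14) and miR-199a-5p (0.22) at 1500 ppm.

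Leaving out each rat in turn, the difference was -0.0941 to 0.11 for miR-214-3p and -0.0851 to 0.00283 for miR-145-3p at 600 ppm, -0.0260 to 0.13 for miR-145-5p at 1000 ppm, and -0.11 to 0.0488 for miR-199a-5p and -0.0403 to 0.0429 for miR-199a-3p at 1500 ppm. The interaction called 1 to 3 of the 6 and 34 to 102 miRNAs, the trend called 0 to 2 miRNAs, and 1000 ppm in females called 0 to 1 of the 6. The interaction of miR-199a-5p passed without control rat 2 or 600 ppm rat 26, and that of miR-214-3p without 1000 ppm rat 13. The fit of normexp gave background means of -66.1 on the array of control male 3 and -619 on that of 600 ppm female 26, against -12.3 to 0.21 on the others. Where no cause is given, the cause was not tested. rno-miR-145-3p lay at or near background on every array, which limits all its values.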
